A study of Mus musculus with 12 samples.

Results

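Genes that mark follicular and marginal zone B cells, the mature B cells of the spleen, were followed over 12 Affymetrix arrays of mouse spleen. Members were the 9 genes Fcer2a, Cr2, Ms4a1, Cd22, Cd79a, Cd79b, Pax5, Cd1d1 and Cd9, of 19938 genes with a probe set annotated to 1 symbol, and each was measured by 1 probe set. The labels form 3 groups of 4 biological replicates, all from C57BL/6 spleen. Septic TLR-deficient mice, whose titles carry the word Trifxmyd, underwent colon ascendens stent peritonitis (CASP), in which a stent in the gut wall lets bacteria leak into the abdomen. Septic wildtype mice underwent the same operation, and untreated wildtype mice did not. The alleles behind Trifxmyd, the time after the operation, and the age and sex of the mice are not given in the sources used here, and the study has no untreated TLR-deficient group. Whole spleen was measured, so fewer B cells and less RNA per B cell cannot be told apart in any of the values that follow.

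The spleen holds follicular B cells, which recirculate and sit in the follicles of the white pulp, and marginal zone B cells, which line the border of the follicles and respond quickly to blood-borne antigen. Both carry an antigen receptor made of immunoglobulin and the signalling pair encoded by Cd79a and Cd79b, and both depend on the transcription factor Pax5 for their identity. Cr2 (CD21) binds complement fragments and lowers the threshold for B cell activation, and it is most abundant on marginal zone B cells. Fcer2a (CD23) is a low-affinity IgE receptor that follicular B cells carry and marginal zone B cells largely lack. Follicular dendritic cells, the stromal cells of the follicle, also carry the products of Cr2 and Fcer2a, and Cd9 is abundant in platelets and many other cells, so none of these 3 genes is expressed by B cells alone.

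The arrays did not all group with their labels, and the calls and the counts over the set are therefore given with all 12 arrays and without arrays in doubt. Septic wildtype replicate 2 had compressed values: the standard deviation of its log2 values over genes was 1.215, against 1.91 to 2.07 on the other 11 arrays, and it correlated with them at r = 0.765 to 0.809 across genes, against 0.956 to 0.991 among those 11. Of the 12 arrays, 5 were most alike to an array of their own label. Septic TLR-deficient replicate 4 was most alike to septic wildtype replicate 1, septic wildtype replicate 4 to untreated wildtype replicate 1, and untreated wildtype replicate 4 to septic TLR-deficient replicate 1. Group names here are those of the labels, and no array was moved to another group. Myd88 and Ticam1, the genes of the adaptor proteins MyD88 and TRIF, had log2 differences of 0.99 (SE 0.48) and -0.13 (SE 0.20) for septic TLR-deficient minus septic wildtype, with adjusted p of 0.590 and 0.740 in limma, and the part of each gene that the probe sets cover relative to the alleles is not given.

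Promoters of the members are shown because most members were low on the same arrays: with septic wildtype replicate 2 set aside, 8 of the 9 genes were lower on septic TLR-deficient replicates 1 to 3 and untreated wildtype replicate 4 than on the other 7 arrays, against 5.07% of all genes. With that array kept in, 2 of the 9 were lower on those 4 arrays than on the other 8, against 1.85% of all genes. RefSeq's promoter table for GRCm38.p6 holds 8 windows for 6 of the members (Fcer2a has 3 of them). Printed are the 150 bases before the annotated start of the 2 genes with the widest spread over 11 arrays, septic wildtype replicate 2 left out, Fcer2a and Cr2, and of the 2 others in which a searched motif lay within them, in lower case 5′ to 3′ on the strand of the gene with the matched letters in capitals. The Fcer2a window is chr8:3694175-3694324 on the minus strand, Cr2 is chr1:195176720-195176869 on the minus strand, Cd22 is chr7:30879029-30879178 on the minus strand and Cd79a is chr7:24897347-24897496 on the plus strand.
Fcer2a: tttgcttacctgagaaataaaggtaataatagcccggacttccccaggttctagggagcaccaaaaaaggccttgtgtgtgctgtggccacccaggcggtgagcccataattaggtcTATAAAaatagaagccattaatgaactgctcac
Cr2: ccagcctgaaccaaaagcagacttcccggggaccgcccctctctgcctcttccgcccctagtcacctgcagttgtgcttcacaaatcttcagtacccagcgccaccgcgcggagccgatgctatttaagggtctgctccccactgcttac
Cd22: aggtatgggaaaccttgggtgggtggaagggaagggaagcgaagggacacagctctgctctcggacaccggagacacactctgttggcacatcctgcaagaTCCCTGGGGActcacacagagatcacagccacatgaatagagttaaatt
Cd79a: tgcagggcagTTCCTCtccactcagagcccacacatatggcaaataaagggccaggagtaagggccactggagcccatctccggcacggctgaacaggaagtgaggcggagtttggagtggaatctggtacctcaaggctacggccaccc
The search covered the 250 bases before each start on both strands, in 32851 windows of the table. TATAAA, the TATA box, lay at -33 to -28 before one start of Fcer2a and is held by 12.4% of all windows. TCCCNNGGG, the core of the site of EBF1, a transcription factor of the B lineage, lay in Cd22 at -49 to -41 on the gene strand and, overlapping it, at -48 to -40 on the reverse strand, and is held by 5.6% of all windows. GAGGAA, the core of the site of PU.1, lay at -140 to -135 in Cd79a on the reverse strand, where the gene strand reads TTCCTC, and is held by 23.3% of all windows. ATGCAAAT, the octamer bound by POU factors, was found in 0 of the 8 member windows and in 1.6% of all windows. A match describes these letters only, and no motif was shared between 2 members.

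Over all 12 arrays, 0 of the 9 genes passed an adjusted p of 0.05 in limma in any of the 3 comparisons, and the background was 0% of the 19938 genes in each. At an unadjusted p under 0.05 that fit called 1325 genes between septic TLR-deficient and septic wildtype, 375 between septic TLR-deficient and untreated wildtype and 1756 between septic wildtype and untreated wildtype. Fcer2a was the single member among them, in the first comparison, where 2.22% of all genes were lower and 4.42% higher at that level. In septic TLR-deficient minus untreated wildtype 0.707% of all genes were lower and 1.17% higher, and in septic wildtype minus untreated wildtype 5.92% were lower and 2.89% higher. The groups overlapped for all 9 members in the 3 comparisons. Over all genes, groups that did not overlap made up 1.76% lower and 2.05% higher in septic TLR-deficient minus septic wildtype, 0.998% and 2.4% in septic TLR-deficient minus untreated wildtype, and 2.74% and 3.68% in septic wildtype minus untreated wildtype. What the members other than Cd9 shared was a pattern over arrays that cut across the labels: septic TLR-deficient replicates 1 to 3 and untreated wildtype replicate 4 were low, and septic TLR-deficient replicate 4 lay above the other 3 arrays of its label.

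**Figure D1:**
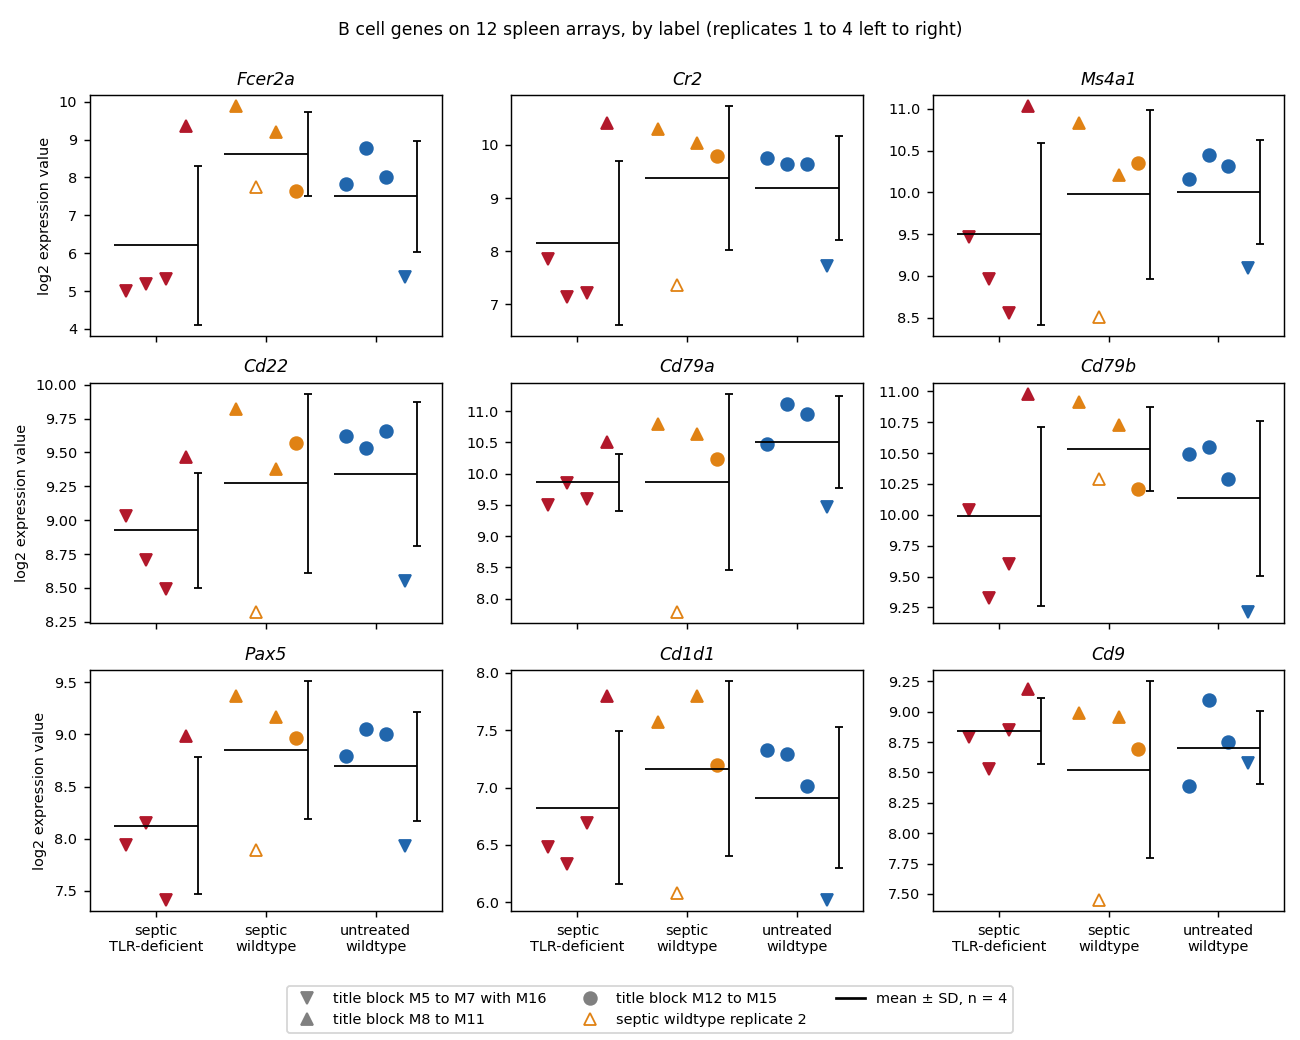
Log2 expression value (y axis) of each of the 9 genes on 12 spleen arrays, grouped on the x axis by label with replicates 1 to 4 left to right. Marker shape gives the title block, the open symbol is septic wildtype replicate 2, and lines and bars are means ± SD (n = 4). For Fcer2a, septic TLR-deficient replicate 4 stands at 9.35 while the other 3 arrays of its label lie between 4.99 and 5.31.

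Fcer2a, the IgE receptor of follicular B cells, had the widest spread of the 9 genes. Its log2 values were 4.99, 5.18, 5.31 and 9.35 on septic TLR-deficient replicates 1 to 4, 9.88, 7.76, 9.19 and 7.63 on septic wildtype replicates 1 to 4, and 7.83, 8.79, 8.0 and 5.38 on untreated wildtype replicates 1 to 4. The 4 lowest values thus stood on 3 septic TLR-deficient arrays and 1 untreated array, and the fourth septic TLR-deficient array lay within the septic wildtype range. The means were 6.21 ± 2.10 in septic TLR-deficient, 8.62 ± 1.10 in septic wildtype and 7.50 ± 1.47 in untreated wildtype spleens (SD, n = 4 each). Septic TLR-deficient minus septic wildtype was -2.41 (SE 0.96), with an unadjusted limma p of 0.026 and an adjusted p of 0.590. The difference from untreated wildtype was -1.29 (SE 0.96, adjusted p in limma 1.0), and septic wildtype minus untreated wildtype was 1.11 (SE 0.96, adjusted p in limma 0.478). In the order of group means none of the neighbours differed beyond this spread.

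Cr2, the complement receptor CD21, repeated the pattern at a smaller size. It measured 7.86, 7.13, 7.22 and 10.42 on septic TLR-deficient replicates 1 to 4, against 10.29, 7.37, 10.04 and 9.80 on septic wildtype replicates 1 to 4 and 9.76, 9.64, 9.64 and 7.72 on untreated wildtype replicates 1 to 4. Each label thus held both low and high log2 values: 3 septic TLR-deficient, 1 septic wildtype and 1 untreated array lay at or below 7.86, and the other 7 arrays lay at or above 9.64. The low septic wildtype array was the compressed replicate 2, whose log2 values cannot be set beside the others directly. Cr2 stood there at percentile 91.94 of all genes tested, above its percentiles on the other low arrays. Septic TLR-deficient spleens averaged 8.16 ± 1.54, septic wildtype spleens 9.37 ± 1.35 and untreated wildtype spleens 9.19 ± 0.98 (SD, n = 4 each). The limma difference was -1.22 (SE 0.78, adjusted p 0.590) for septic TLR-deficient minus septic wildtype, -1.03 (SE 0.78, adjusted p 1.0) against untreated wildtype, and 0.18 (SE 0.78, adjusted p 0.885) for septic wildtype minus untreated wildtype.

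Both chains of the antigen receptor's signalling pair were bright on every array, at or above percentile 94.99 of all genes tested for Cd79a and 95.05 for Cd79b. These B cell transcripts were thus bright on all 12 arrays, whatever the label. Cd79a had log2 values of 9.50, 9.85, 9.59 and 10.51 on septic TLR-deficient arrays, 10.80, 7.78, 10.64 and 10.24 on septic wildtype arrays and 10.48, 11.12, 10.95 and 9.47 on untreated arrays. The low septic wildtype value is the compressed replicate 2, and without it the septic wildtype values were all above 3 of the 4 septic TLR-deficient values. Septic TLR-deficient spleens averaged 9.86 ± 0.45 and septic wildtype spleens 9.86 ± 1.41 (SD, n = 4 each), and the means differed by 0.001 (limma SE 0.58, adjusted p 0.999), which became -0.69 when septic wildtype replicate 2 was left out. Against untreated wildtype, at 10.50 ± 0.74 (SD, n = 4), the difference was -0.64 both for septic TLR-deficient (adjusted p in limma 1.0) and for septic wildtype spleens (adjusted p 0.493).

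Cd79b read 10.04, 9.33, 9.60 and 10.98 on septic TLR-deficient arrays, 10.91, 10.29, 10.73 and 10.21 on septic wildtype arrays and 10.49, 10.55, 10.29 and 9.21 on untreated arrays. Unlike for Cd79a, the log2 value on the compressed septic wildtype replicate 2 lay inside the range of the other septic wildtype arrays. By position within the array, Cd79b stood there at percentile 99.52 of all genes tested, its highest of all 12 arrays. Its limma difference was -0.55 (SE 0.37, adjusted p 0.590) for septic TLR-deficient minus septic wildtype, -0.15 (SE 0.37, adjusted p 1.0) against untreated wildtype and 0.40 (SE 0.37, adjusted p 0.501) for septic wildtype minus untreated wildtype.

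Ms4a1 encodes CD20, a surface protein of B cells before the plasma cell stage. It measured 9.46, 8.96, 8.55 and 11.03 in septic TLR-deficient spleens, against 10.83, 8.51, 10.21 and 10.35 in septic wildtype and 10.16, 10.45, 10.31 and 9.09 in untreated wildtype spleens. Its highest value of all 12 thus lay in the group that also held 3 of its lowest 5. The lowest, 8.51, is that of the compressed septic wildtype replicate 2 and cannot be set beside the others directly. Ms4a1 stood there at percentile 97.66 of all genes tested, above its percentiles on the other 4 of those arrays. The difference of septic TLR-deficient minus septic wildtype was -0.47 (SE 0.56, adjusted p in limma 0.666). It was -0.50 against untreated wildtype (adjusted p in limma 1.0) and -0.027 for septic wildtype minus untreated wildtype (adjusted p 0.978).

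Cd22 encodes a sialic acid-binding receptor that dampens signalling from the B cell receptor. It read 9.03, 8.71, 8.49 and 9.47 in septic TLR-deficient spleens, 9.82, 8.32, 9.38 and 9.57 in septic wildtype spleens and 9.62, 9.53, 9.66 and 8.55 in untreated wildtype spleens. The lowest, 8.32, is that of the compressed septic wildtype replicate 2, where Cd22 stood at percentile 97.17 of all genes tested. The limma difference was -0.34 (SE 0.35, adjusted p 0.629) for septic TLR-deficient minus septic wildtype and -0.41 (SE 0.35, adjusted p 1.0) against untreated wildtype, and -0.068 (adjusted p 0.905) for septic wildtype minus untreated wildtype. Replicates 1 to 3 of the untreated label lay between 9.53 and 9.66, and replicate 4 lay below all 3.

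Pax5, the transcription factor that holds cells in the B lineage, read 7.94, 8.15, 7.41 and 8.99 in septic TLR-deficient spleens, 9.37, 7.89, 9.17 and 8.97 in septic wildtype spleens and 8.79, 9.05, 9.0 and 7.93 in untreated wildtype spleens. No array lay between 8.15 and 8.79: the 5 lower values were those of septic TLR-deficient replicates 1 to 3, septic wildtype replicate 2 and untreated wildtype replicate 4. Septic wildtype replicate 2 is the compressed array, so its log2 value cannot be set beside the others directly. Pax5 stood there at percentile 95.61 of all genes tested, against 78.66 to 87.75 on the other arrays with lower values. Pax5 averaged 8.12 ± 0.66 in septic TLR-deficient spleens, 8.85 ± 0.66 in septic wildtype and 8.69 ± 0.52 in untreated wildtype (SD, n = 4 each). The limma difference of septic TLR-deficient minus septic wildtype was -0.73 (SE 0.39, adjusted p 0.590), that against untreated wildtype -0.57 (adjusted p 1.0) and that of septic wildtype minus untreated wildtype 0.16 (adjusted p 0.798).

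Cd1d1, which presents lipids to natural killer T cells and is abundant on marginal zone B cells, followed the same order. Its values were 6.48, 6.33, 6.69 and 7.80 in septic TLR-deficient spleens, 7.57, 6.08, 7.80 and 7.20 in septic wildtype spleens and 7.33, 7.29, 7.01 and 6.02 in untreated wildtype spleens. The difference of septic TLR-deficient minus septic wildtype was -0.34 (SE 0.42, adjusted p in limma 0.683), against -0.083 from untreated wildtype (adjusted p 1.0) and 0.25 for septic wildtype minus untreated wildtype (adjusted p 0.699). Its lowest value of all 12 was that of untreated wildtype replicate 4, not of a septic array.

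Cd9, a tetraspanin found on marginal zone B cells, plasma cells and platelets, was the exception. It read 8.79, 8.53, 8.85 and 9.19 in septic TLR-deficient spleens, 8.99, 7.45, 8.96 and 8.69 in septic wildtype spleens and 8.39, 9.10, 8.75 and 8.58 in untreated wildtype spleens, so that outside septic wildtype replicate 2 its values spanned only 0.80. The 3 limma differences were 0.32 (SE 0.31, adjusted p 0.622) for septic TLR-deficient minus septic wildtype, 0.13 against untreated wildtype (SE 0.31, adjusted p 1.0) and -0.18 for septic wildtype minus untreated wildtype (SE 0.31, adjusted p 0.707).

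As a set, the members had a lower mean in septic TLR-deficient than in septic wildtype spleens for 7 of 9 genes, against 56.1% of all genes, with a median difference of -0.47 against -0.063 over all genes. Against untreated wildtype, 8 of 9 had the lower mean in septic TLR-deficient spleens, against 48.1% of all genes, with medians of -0.50 for the members and 0.008 for all genes. Between septic wildtype and untreated wildtype, 5 of 9 were higher in septic wildtype, against 55.1% of all genes, with medians of 0.16 for the members and 0.067 for all genes. Septic wildtype replicate 2 moved both comparisons that hold it. Without it, 9 of 9 members had the lower mean in septic TLR-deficient than in septic wildtype spleens, against 52% of all genes, with medians of -0.70 for the members and -0.008 for all genes. Likewise 9 of 9 were then higher in septic wildtype than in untreated wildtype spleens, against 55.3% of all genes, with medians of 0.48 for the members and 0.024 for all genes. The 3 comparisons share arrays with one another, so their values are not separate evidence, and the genes share the B cells of each spleen.

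Leaving out arrays changed the calls. With replicates 1 to 3 of each label alone, Fcer2a fell in septic TLR-deficient against septic wildtype spleens by 3.79 on the log2 scale (SE 0.48, adjusted p in limma 0.00778), 1 of 9 members where 0.13% of all genes were called lower and 0.577% higher. With septic wildtype replicate 2 left out as well, 8 of the 9 genes fell, all except Cd9, where 2.92% of all genes were called lower and 2.11% higher. The difference was then -4.38 for Fcer2a (SE 0.30, adjusted p in limma 0.000262) and -2.76 for Cr2 (SE 0.22, adjusted p 0.000435). Ms4a1 (-1.53), Pax5 (-1.44), Cd1d1 (-1.19), Cd79b (-1.16), Cd79a (-1.07) and Cd22 (-0.85) had adjusted p in limma between 0.00522 and 0.0371, and Cd9 (-0.25) had 0.616. These fits were added after the values were seen and leave out the very arrays that lay across the labels, which favours calls.

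Against untreated wildtype, the fit on replicates 1 to 3 alone called 0 members where 0.0552% of all genes were called lower and 0.11% higher, with Fcer2a at -3.05 (SE 0.48, adjusted p in limma 0.0529) and 6 members at an unadjusted p under 0.05. Without septic wildtype replicate 2 that fit called 7 of 9 members lower in septic TLR-deficient spleens, where 2.44% of all genes were lower and 0.943% higher. Fcer2a at -3.05 and Cr2 at -2.27 led, Cd79b (-0.79) missed with an adjusted p in limma of 0.0521, and Cd9 (-0.025) with 0.959. Both of these fits give the same differences here, since septic wildtype replicate 2 entered only through the shared estimate of the spread. Between septic wildtype and untreated wildtype, 0 of the 9 genes were called under either setting, where 0.0401% and 0.0802% of all genes were lower and 0.00502% and 0.015% higher. At an unadjusted p under 0.05 limma held 0 members with replicates 1 to 3 and 3 without septic wildtype replicate 2 as well. The share of all genes at that level is not given for these fits. The counts at an unadjusted p, the 6 members above included, thus have no background and are not read as a result.

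**Figure D2:**
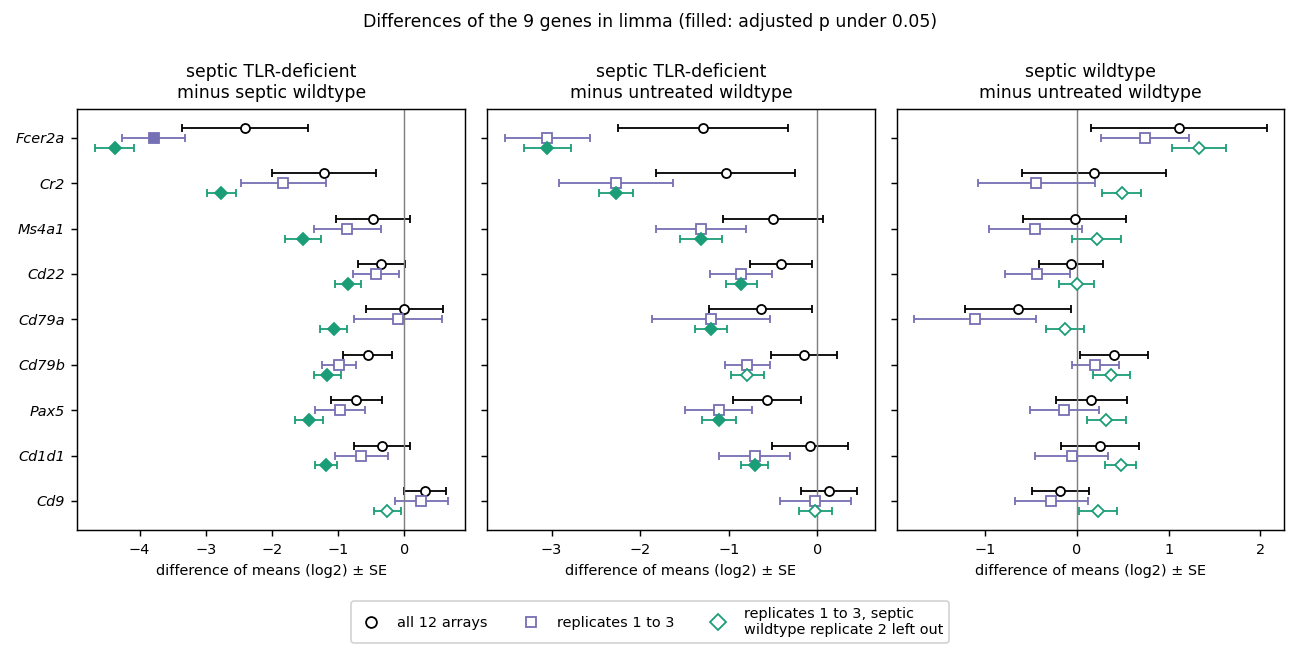
Difference of group means in log2 units (x axis, bars ± SE) for each gene (y axis) in the 3 comparisons, with all 12 arrays, with replicates 1 to 3, and with septic wildtype replicate 2 left out as well; filled symbols have an adjusted p under 0.05 in limma. With all 12 arrays no symbol is filled, and under the last setting Fcer2a reaches -4.38 and Cd9 stays at -0.25 in the first comparison.

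Set by the running numbers of the titles instead of the labels, the arrays fall into blocks M5 to M7 with M16, M8 to M11 and M12 to M15. These blocks come from the rule that defines the gene set and were chosen with earlier results of these data known, so their values are a description with no test. On replicates 1 to 3 of each label, label and block coincide. The p-values of the fits on those replicates are therefore no separate support for the labels or for the blocks. Block M5 to M7 with M16 holds septic TLR-deficient replicates 1 to 3 and untreated wildtype replicate 4. Block M8 to M11 holds septic TLR-deficient replicate 4 and septic wildtype replicates 1 to 3, and block M12 to M15 holds septic wildtype replicate 4 and untreated wildtype replicates 1 to 3.

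In block M5 to M7 with M16 all 4 arrays lay below the other 7, septic wildtype replicate 2 set aside, for 8 of the 9 genes, against 5.07% of all genes. With that array kept in, 2 of the 9 genes met the same order over 8 arrays, Fcer2a and Cd79b, against 1.85% of all genes. The step between the highest array of the block and the lowest of the other 7 was 2.24 for Fcer2a (4.73-fold) and 1.78 for Cr2 (3.43-fold). It was 0.71 for Ms4a1, 0.64 for Pax5, 0.39 for Cd79a, 0.34 for Cd22, 0.32 for Cd1d1 and 0.17 for Cd79b, and for Cd9 the ranges overlapped. The 4 arrays of the block differed among themselves by 0.39 for Fcer2a, less than for 6 of the other members. Fcer2a was dim on these arrays, at percentiles 39.84 to 47.23 of all genes tested. The part of dim signal in its spread and its step was not tested.

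The other blocks were set apart for part of the genes. On septic TLR-deficient replicate 4 and septic wildtype replicates 1 and 3, Fcer2a, Cr2, Cd79b and Cd1d1 lay above all 4 arrays of block M12 to M15, 4 of 9 members against 7.87% of all genes. Fcer2a spanned 9.19 to 9.88 on those 3 arrays, against 7.63 to 8.79 in block M12 to M15. For Cr2 the ranges were 10.04 to 10.42 and 9.64 to 9.80. For Ms4a1, Cd22, Cd79a, Pax5 and Cd9 the ranges overlapped.

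Positions within each array bore on the compressed septic wildtype replicate 2, whose log2 values cannot be set beside the others directly. Fcer2a stood at percentile 94.89 of all genes on that array, within the range of 80.88 to 98.19 over the 7 arrays outside block M5 to M7 with M16, and at percentiles 39.84 to 47.23 in that block. Cr2 stood at percentile 91.94 there, between 73.32 to 81.68 in that block and 96.93 to 98.95 on the other 7 arrays. Pax5 stood at 95.61, Cd1d1 at 64.37 and Cd79b at 99.52, its highest position of all 12 arrays. On this scale Cr2 and Pax5, whose log2 values on the compressed array lay within block M5 to M7 with M16, lay outside that block's range, while Cd1d1 lay inside its 56.24 to 67.19 and Cd79a, at 94.99, had its lowest position of all 12 arrays. Ms4a1 and Cd22, whose log2 values on the compressed array lay below that block, stood at 97.66 and 97.17. Both were above the block's positions of 92.39 to 96.23 and 90.24 to 94.1. Cd22 also lay within the 96.52 to 98.05 of the other 7 arrays, and Ms4a1 below their 98.56 to 99.54. Cd9, at 92.66, lay inside the block's 90.49 to 94.38.

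**Figure D3:**
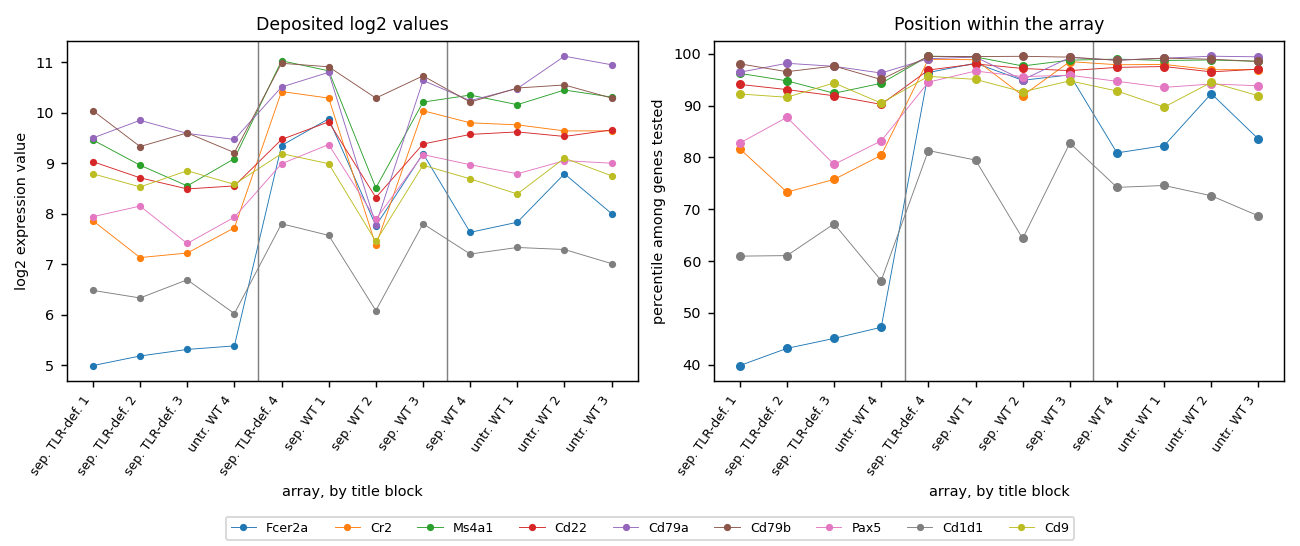
Log2 expression value (left y axis) and percentile among all genes tested on the same array (right y axis) of the 9 genes, with the 12 arrays on the x axis ordered by title block and vertical lines between blocks (sep., septic; untr., untreated; WT, wildtype; TLR-def., TLR-deficient). Fcer2a lies at percentiles 39.84 to 47.23 on the first 4 arrays and at 80.88 or above on the other 8.

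Other genes of the B cell programme were taken from lists chosen by role, and 0 genes of any list passed the limma threshold over all 12 arrays in any comparison. The next counts at an unadjusted p pool all lists, those of other cell types and of pancreas included. They are thus not counts of B cell genes alone. At an unadjusted p under 0.05 the fit held 11 of 155 list genes in septic TLR-deficient minus septic wildtype, 10 higher and 1 lower, where 4.42% of all genes were higher and 2.22% lower. In septic TLR-deficient minus untreated wildtype it held 13, 6 higher and 7 lower, where 1.17% and 0.707% of all genes were higher and lower. In septic wildtype minus untreated wildtype it held 10, 1 higher and 9 lower, where 2.89% and 5.92% were. Among 17 measured genes of B cell receptor signalling, 10 had the higher mean in septic TLR-deficient than in septic wildtype spleens and 7 the lower, with a median difference of 0.145. Without the compressed septic wildtype replicate 2 it was 5 higher and 12 lower, with a median of -0.302, so the sign of this list rests on that array. The 3 genes of the list with the highest mean values were Cd81, a tetraspanin of the B cell surface (0.036, SE 0.30), Ptpn6, a phosphatase recruited by CD22 (-0.69, SE 0.45), and Pik3ap1, an adaptor for PI3 kinase (0.56, SE 0.41), with adjusted p in limma of 0.955, 0.590 and 0.590. By title block, 8 of the 17 lay below the other 7 arrays in block M5 to M7 with M16: Blnk, Blk, Plcg2, Bank1, Prkcb, Rasgrp3, Ptpn6 and Siglecg. Fcgr2b, an inhibitory receptor, was the one gene of the list above them. The mean of the list was 8.25 to 8.79 in the block and 8.85 to 9.12 on those 7 arrays.

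Of 12 transcription factors of the B lineage, 6 had the higher and 6 the lower mean in septic TLR-deficient than in septic wildtype spleens, and all 12 the lower mean against untreated wildtype (medians -0.034 and -0.354). Without septic wildtype replicate 2 the first count was 1 higher and 11 lower (median -0.268). Irf8 (-0.12, SE 0.31), Foxp1 (0.17, SE 0.28) and Spib (-0.48, SE 0.67) had the highest mean values, with adjusted p in limma between 0.706 and 0.838 for septic TLR-deficient minus septic wildtype. Spib, Ikzf3 and Bcl11a, 3 of the 12, had the block order of the members. The mean of the list was 7.62 to 8.02 in block M5 to M7 with M16 and 8.31 to 8.72 on the other 7 arrays. Among 15 receptors and ligands of B cell survival and homing, 7 were higher and 8 lower (median -0.075; -0.439 without septic wildtype replicate 2), and 6 had that block order, namely Ltb, Lta, Cd37, Cd180, Fcrl1 and Tlr9, while Ccr7 had the opposite one. Cd24a (0.23, SE 0.19), Cd37 (-0.55, SE 0.46) and Btla (0.36, SE 0.45) had the highest mean values of that list. Its mean over genes was 7.90 to 8.36 in the block and 8.58 to 8.90 on the other 7 arrays.

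Genes of particular B cell subsets and stages came next. Of 11 further marginal zone genes, 5 were higher and 6 lower in septic TLR-deficient than in septic wildtype spleens (median -0.065; -0.344 without septic wildtype replicate 2), and Dtx1, a Notch target, and Asb2 were the 2 with the members' block order. The mean of this list was 8.07 to 8.59 in block M5 to M7 with M16 and 8.63 to 8.86 on the other 7 arrays. The 7 germinal centre genes were dim as a list, with means of 5.21 to 5.68 over the arrays, near the array medians of 5.568 to 5.735. The part of dim signal in their counts was not tested. Of these 7 genes, 2 were higher and 5 lower (median -0.148; 0.068 without septic wildtype replicate 2). Only Gcsam had the members' block order, while Fas had its reverse. Of 10 plasma cell genes, 9 were higher and 1 lower (median 0.376; 0.165 without that array), 0 had the members' order and Prdm1 and Sdc1, the plasma cell regulator Blimp-1 and the surface marker CD138, lay above the other 7 arrays in block M5 to M7 with M16. The highest mean values in these lists were those of Cd36 (0.56, SE 0.36), S1pr1 (0.25, SE 0.35) and Plac8 (0.83, SE 0.58) for the marginal zone, Fas (1.15, SE 0.38), S1pr2 (-0.15, SE 0.19) and Gcsam (-0.40, SE 0.46) for the germinal centre, and Jchain (0.52, SE 0.44), Xbp1 (0.11, SE 0.20) and Edem1 (0.65, SE 0.52) for plasma cells, with adjusted p in limma between 0.590 and 0.763. Over all genes the block lay below the other 7 arrays for 5.07% and above for 2.18%. The means of the germinal centre and of the plasma cell list overlapped between the block and those 7 arrays. With replicates 1 to 3 and septic wildtype replicate 2 left out, limma called 5 of 17 receptor signalling genes lower and 1 higher in septic TLR-deficient than in septic wildtype spleens, 3 of 12 transcription factors, 3 of 15 survival and homing genes and 1 of 11 marginal zone genes lower, and 1 of 7 germinal centre and 1 of 10 plasma cell genes higher, where 2.92% of all genes were called lower and 2.11% higher. Whether any of these lists differs from the members was not tested.

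Markers of other cells were low on several of the same arrays. T cell markers averaged 6.97, 7.09 and 7.30 on septic TLR-deficient replicates 2, 3 and 1, 6.99 on untreated wildtype replicate 4 and 7.02 on septic wildtype replicate 2, and between 7.40 and 8.28 on the other 7 arrays. Within block M5 to M7 with M16, 3 of 10 T cell genes (Cd3g, Cd8a and Cd8b1) lay below those 7 arrays. Dendritic cell markers averaged 5.53 to 5.79 in the block, 5.85 on septic wildtype replicate 2 and 6.72 to 7.34 elsewhere, with 6 of 10 genes below. The members themselves averaged 7.97 to 8.23 in the block, 7.94 on septic wildtype replicate 2 and 9.18 to 9.83 elsewhere. Septic wildtype replicate 2 is the compressed array, so none of these list means on it can be set beside the others directly. By percentile, Fcer2a, Cr2, Ms4a1, Cd22, Pax5 and Cd79b lay above their positions in the block on that array, and Cd79a, Cd1d1 and Cd9 did not. The part of these cells in the members' values was not tested, and values of this kind have no true zero, so none of these markers can be called absent.

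Follicular dendritic and marginal reticular cell markers, from the stroma that shares Cr2 and Fcer2a, averaged 8.64 to 9.06 in block M5 to M7 with M16 and 8.49 to 9.01 on the other 7 arrays. Cxcl13, the chemokine of the follicle, was the single gene of 8 that set the block apart, and it lay above. Platelet and megakaryocyte markers, which share Cd9, averaged 6.94 to 7.31 in the block and 7.12 to 7.65 elsewhere, with 3 of 8 genes below (Ppbp, Gp5 and Vwf). Macrophage and monocyte markers averaged 8.12 to 8.53 in the block and 8.83 to 9.27 on the other 7 arrays, so their mean had the members' block order. Of these markers, 5 of 11 genes lay below and 1 above. Natural killer cell markers had 3 of 10 genes below, neutrophil markers 2 of 10 below and erythroid markers 0 of 8 on either side. The means of these last lists overlapped between the block and the other 7 arrays. In septic TLR-deficient minus septic wildtype spleens the list medians were -0.412 for T cells, -0.592 for dendritic cells, 0.252 for the follicular stroma, -0.167 for platelets, 0.105 for macrophages, -0.110 for natural killer cells, -0.102 for neutrophils and 0.713 for erythroid cells. Without septic wildtype replicate 2 they were -0.607 for T cells, -0.899 for dendritic cells, 0.070 for the follicular stroma, -0.227 for platelets, -0.529 for macrophages, -0.378 for natural killer cells, -0.242 for neutrophils and 0.888 for erythroid cells. In the fit on replicates 1 to 3 without that array, 6 of 10 T cell genes and 7 of 10 dendritic cell genes were called lower, beside the 8 of 9 members and 2.92% of all genes. It also called lower 4 of 11 macrophage and monocyte genes, 2 of 8 genes of the follicular stroma, 2 of 8 platelet genes, 2 of 10 natural killer cell genes and 1 of 10 neutrophil genes. It called higher 3 of 8 erythroid genes and 1 gene each of the macrophage, natural killer cell and neutrophil lists, where 2.11% of all genes were called higher.

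Pancreatic acinar markers, from the organ that touches the spleen, were high on single arrays. Their mean was 8.73 on septic wildtype replicate 4 and 9.68, 6.87 and 5.81 on untreated wildtype replicates 2, 4 and 1, against 4.66 to 5.01 on the septic TLR-deficient arrays and 4.66 to 5.77 on the rest. The members' mean was 9.18 on septic wildtype replicate 4 and 9.50, 7.99 and 9.20 on untreated wildtype replicates 2, 4 and 1. The part of pancreatic tissue in the members' values was not tested.

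**Figure D4:**
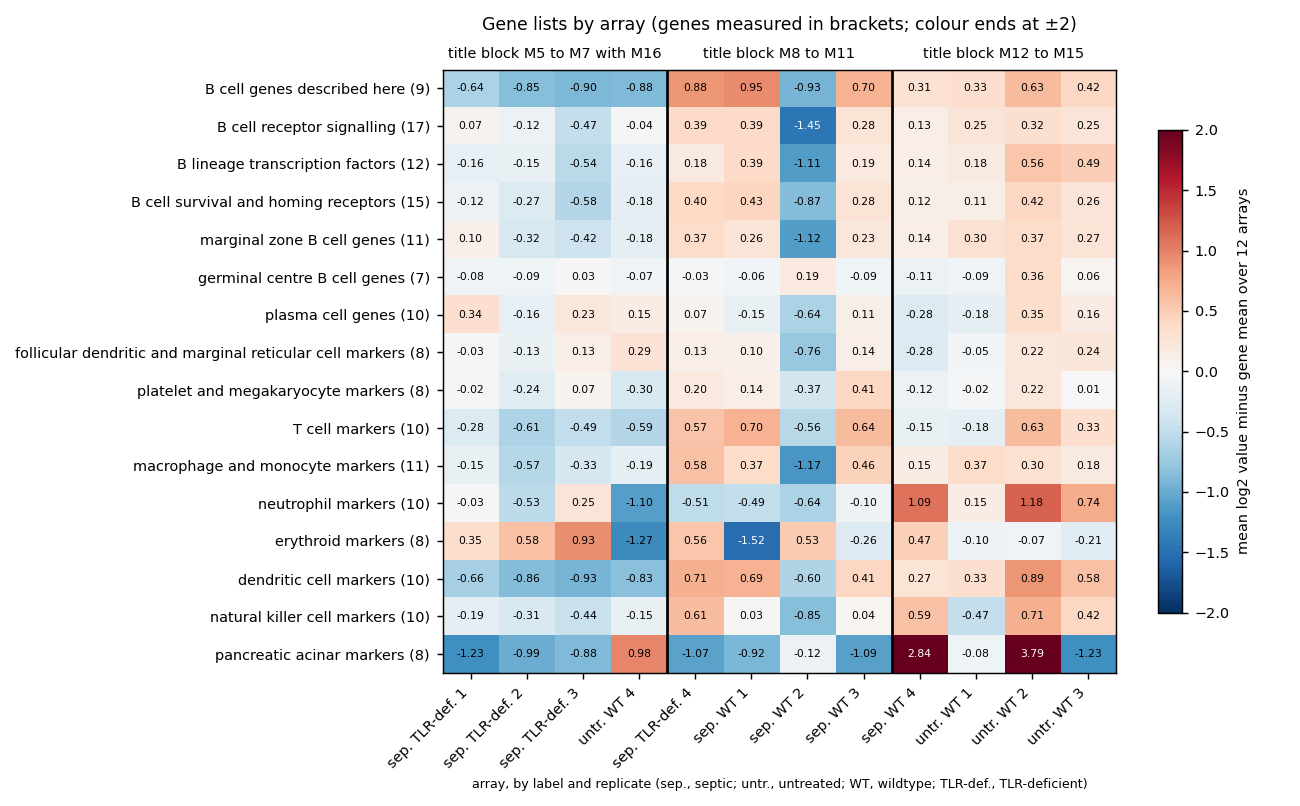
Mean log2 value of each gene list minus the gene means over 12 arrays (colour and printed number), with lists on the y axis and arrays on the x axis ordered by title block. The 9 B cell genes read -0.64 to -0.90 on the septic TLR-deficient arrays of the first block and 0.31 to 0.95 on the arrays to its right except septic wildtype replicate 2, at -0.93. That array has compressed values, so its column cannot be set beside the others directly.

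Likeness to the members was measured as the root-mean-square difference, over 12 arrays, between a gene's log2 values centred on their mean and the mean centred profile of the 9 genes. The most alike of 19929 other genes were Rtn4rl1 (0.179), Spns3 (0.181), Cd37 (0.192), Tec (0.195), Cnr2 (0.199), Zfp521 (0.199), Siae (0.205), Gm2a (0.210), Pik3c2b (0.215) and Gga2 (0.219), where a gene with no change over arrays scores 0.739 and the median of the other genes was 0.822. Cd37, a tetraspanin, was the one of these that stood on a B cell list here. Among the members Ms4a1 (0.230) and Pax5 (0.234) lay nearest to the mean profile, and Cr2 (0.546), Cd9 (0.596) and Fcer2a (1.106) farthest, Fcer2a and Cr2 with the wider spread and Cd9 with the narrower. With septic wildtype replicate 2 left out, 2 of the 10 genes stayed among the 10 most alike, Rtn4rl1 and Spns3, and Smim14, Slc46a3, Stk10 and Ciita led. All 10 stayed within the first 30 of the 19929 genes, at ranks between 5 and 30.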

How the data were processed

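Total RNA of mouse spleen was labelled with biotin and measured on 12 Affymetrix arrays. Each deposited value is the log2 expression of a probe set, computed by the authors with RMA in Affymetrix Expression Console, per the submitters' processing notes, which give no versions. RMA sets the arrays to a common distribution, yet septic wildtype replicate 2 has a narrower one, for which no reason is given. The labels' extraction text opens with a sentence on an unrelated mutant, which was not used.

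The table holds 35557 probe sets: 21789 with 1 gene symbol, 1621 with several and 12147 with none here. For each of 19938 genes the probe set of greatest mean value was kept, and dim genes were not filtered out. Groups followed the labels, and nothing but the title says that replicates are separate animals, so p-values measure the spread between these samples. Differences were fitted with limma 3.58.1 (R 4.3.3; a mean for every group, all 12 arrays in the fit, moderated two-sided test, Benjamini-Hochberg over all genes, threshold 0.05). The number of arrays limits the precision. The procedure was tested on simulated data, drawn as independent normal values for each gene and array. The simulation held no compressed array and no arrays across labels, so it does not show how the fits behave with them. Figures used matplotlib 3.10.9 in Python 3.11.15.

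The members and lists were chosen with earlier results of these data known. Genes named were the 9 members, of each list the 3 genes of highest mean (printed for the B cell lists), and, chosen after their values were seen, genes that met a stated block order, with the 10 genes most alike to the members. Same-numbered replicates deviated from their group means with r between -0.535 and 0.144, so the numbers do not pair the samples. Alternatives were a further quantile normalization, median centring, a filter at percentile 50, the mean of probe sets, array weights, trended and robust variances, fits on only the groups compared, a replicate block and leaving out each array. Both settings with replicates 1 to 3, the percentile scale and the likeness without septic wildtype replicate 2 were added after the values were seen. Promoter sequences are from RefSeq, and 18 listed genes were not analysed here.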

Additional observations from a re-analysis of the deposited data

Results flagged for a closer look

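Of 27 groups of 4 arrays (9 genes under 3 labels), 4 held an array set apart from the other 3. Its gap to the nearest of them was larger than Dixon's 95% limit allows, where chance gives about 1 in 20 for a single group. The share over all genes on these arrays is not given, so this count has no background. The 27 groups also share arrays and are not independent, and the count is not read as a trait of the members. Fcer2a on septic TLR-deficient replicate 4 was high at 9.35, with the other 3 arrays between 4.99 and 5.31. Cr2 on septic wildtype replicate 2 was low at 7.37, with the others between 9.80 and 10.29, and this is the array with compressed values. Untreated wildtype replicate 4 was low both for Cr2, at 7.72 against 9.64 to 9.76, and for Cd22, at 8.55 against 9.53 to 9.66. Septic TLR-deficient replicate 4 and untreated wildtype replicate 4 were among the arrays most alike to an array of another label, and septic wildtype replicate 2 correlated least with the rest. Other arrays most alike to another label held no such value, and the part of sample handling or labelling in these values was not tested.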

How the results depend on the processing

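Under the alternatives fixed with the design, 0 of 540 member differences passed the threshold and the lowest adjusted p in limma was 0.178. The sign turned in 33 of them, 23 of these with 1 array left out. The replicate block gave 0 genes and 0 members past the threshold in each comparison and changed no call, and the numbers are not known to pair the samples. Array weights, which gave septic wildtype replicate 2 a weight of 0.039, called 1 gene between septic wildtype and untreated wildtype. With replicates 1 to 3 only, limma called 141, 33 and 9 genes in septic TLR-deficient minus septic wildtype, septic TLR-deficient minus untreated wildtype and septic wildtype minus untreated wildtype, and 1 member in the first. Without septic wildtype replicate 2 as well, it called 1002, 675 and 19 genes and 8, 7 and 0 members.

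For septic TLR-deficient minus septic wildtype, Cd79a turned to -0.34 and Cd9 to -0.038 under quantile normalization, to -0.80 and -0.10 under array weights, and to -1.07 and -0.25 with replicates 1 to 3 less septic wildtype replicate 2. With replicates 1 to 3 only, Cd79a turned to -0.088. For septic TLR-deficient minus untreated wildtype, Cd9 turned to -0.025 in both fits on replicates 1 to 3. For septic wildtype minus untreated wildtype, Ms4a1, Cd22 and Cd9 turned to 0.42, 0.37 and 0.27 under quantile normalization and to 0.32, 0.10 and 0.13 under array weights. With replicates 1 to 3 only, Cr2, Pax5 and Cd1d1 turned to -0.44, -0.14 and -0.056, and without septic wildtype replicate 2 as well, Ms4a1 and Cd9 turned to 0.21 and 0.23. The cause of these turns was not tested.

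With each array left out in turn, septic TLR-deficient minus septic wildtype ranged from -0.69 to 0.31 for Cd79a and from -0.040 to 0.47 for Cd9. Septic TLR-deficient minus untreated wildtype ranged from -0.48 to 0.071 for Cd79b and from -0.41 to 0.081 for Cd1d1. Septic wildtype minus untreated wildtype ranged from -0.30 to 0.85 for Cr2, -0.33 to 0.46 for Ms4a1, -0.33 to 0.25 for Cd22, -0.99 to 0.053 for Cd79a, -0.098 to 0.48 for Pax5, -0.044 to 0.61 for Cd1d1 and -0.34 to 0.18 for Cd9. The members' median ranged from -0.88 to -0.20, from -0.85 to -0.27 and from -0.23 to 0.48 in the same 3 comparisons, the last highest without septic wildtype replicate 2 and lowest without untreated wildtype replicate 4. Genes at an unadjusted p under 0.05 ranged over 606 to 2201, 146 to 1225 and 793 to 3193.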
